A study of Mus musculus with 24 samples.

Results

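MMTV-CAFs, cancer-associated fibroblasts grown from mammary tumours of MMTV-PyMT mice (strain FVB/NJ), were compared with and without Prrx1 by the acetylation of histone H3 at lysine 27 (H3K27ac). A WT library came from cells given the control guide SgNS and an SG library from cells in which Prrx1 was deleted by CRISPR/Cas9 with SgPrrx1, a guide against its first exon. Both cultures carried the E6 and E7 genes of a human papillomavirus, used to immortalise them, and whether either was 1 clone or a pool is not given in the sources used here. The WT list held 53873 H3K27ac summits and the SG list 61603, together 115476 of the 309261 summits in the 7 H3K27ac lists of the series. A summit is the single base of highest signal in a peak, listed with the −log10 p of its call, which had a median of 16.3 in WT and 17.8 in SG. Each list came from 1 library, so a difference below is between these 2 libraries, there is no replicate error, and no p-value is given. Intervals are 95% Wilson intervals over summits and cover counting error only.

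Prrx1 is a paired-type homeodomain transcription factor of embryonic and activated mesenchyme. H3K27ac marks active promoters and enhancers, and long runs of acetylated enhancers tend to lie beside genes that define a cell type. In tumour stroma, fibroblasts with myofibroblast features produce collagen, contract matrix and secrete growth factors and cytokines. Trimethylation of H3 at lysine 4 (H3K4me3), which was measured in separate libraries of the same cultures, is concentrated at active promoters.

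The targeted gene was examined first. Prrx1 (chromosome 1, 165175247 to 165243841, mm9, minus strand) held 26 summits in WT and 27 in SG within its body and 10 kb on each side. In WT 14 of them had a partner in SG within 500 bp, and in SG 13 had one in WT. The strongest shared summit, 1.70 kb from the annotated start site in WT, had a −log10 p of 102 in WT and 117 in SG. Within 1 kb of a start site only SG had a summit, with 24.2, and the nearest WT summit lay 1057 bp from a start site. H3K4me3 at the start site was 10.3-fold over input in WT and 9.28-fold in SG. Prrx1 itself was therefore acetylated in both libraries, and these marks do not report whether the guide removed the protein. Fibroblast markers were acetylated in both as well. Col1a1 held 8 summits in WT and 14 in SG, Col1a2 24 and 17, Col3a1 19 and 13, Pdgfra 11 and 13, Pdgfrb 18 and 19, and Vim 6 and 7, while Fap, a protease of activated fibroblasts, held 0 in both. Of markers of other cells, the epithelial genes Epcam, Krt5, Krt18 and Cldn7, the leukocyte genes Ptprc, Lyz2, Cd3e and Emr1 and the endothelial gene Kdr held 0 summits in both lists. Others of the same groups did hold summits, among them Krt8 (5 in WT and 8 in SG), Esrp1 (2 and 3), Cd68 (8 and 7), Csf1r (5 and 6), Cd79a (5 and 3) and Pecam1 (7 and 7), and 4 were called in 1 direction or the other, as given with the marker groups at the end.

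The windows below show the strongest summit of 1 WT-specific and 2 SG-specific clusters, among those with the most summits, which are described with their values further on. Each is 299 bases of the mm9 plus strand, 5′ to 3′, centred on the summit, whose single base is the capital letter. They are shown so that the positions that carry the largest losses and gains can be found again. The first lies at chr9:6305245-6305543 in an intron of Pdgfd, the second at chr1:186903696-186903994 in intergenic DNA 80.4 kb from Mark1, and the third at chr1:92337128-92337426 in intergenic DNA 163 kb from Cops8.
WT-specific, Pdgfd intron: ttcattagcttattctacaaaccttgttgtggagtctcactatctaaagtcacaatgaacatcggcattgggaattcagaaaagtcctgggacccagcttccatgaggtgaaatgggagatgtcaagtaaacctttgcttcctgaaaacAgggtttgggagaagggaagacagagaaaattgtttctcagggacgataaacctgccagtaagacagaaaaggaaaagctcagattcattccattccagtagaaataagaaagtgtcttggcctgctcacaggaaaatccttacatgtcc
SG-specific, near Mark1: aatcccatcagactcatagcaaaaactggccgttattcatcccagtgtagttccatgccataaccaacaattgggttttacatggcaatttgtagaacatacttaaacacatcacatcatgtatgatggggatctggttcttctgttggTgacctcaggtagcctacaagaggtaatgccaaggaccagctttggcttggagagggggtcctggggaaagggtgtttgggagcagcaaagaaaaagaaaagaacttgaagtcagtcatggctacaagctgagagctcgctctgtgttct
SG-specific, near Cops8: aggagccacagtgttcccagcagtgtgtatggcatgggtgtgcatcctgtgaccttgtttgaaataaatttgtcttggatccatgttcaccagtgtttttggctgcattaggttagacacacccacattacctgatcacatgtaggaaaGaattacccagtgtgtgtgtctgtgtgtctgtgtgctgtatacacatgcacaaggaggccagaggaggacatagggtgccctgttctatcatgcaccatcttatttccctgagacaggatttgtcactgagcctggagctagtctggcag

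The nearest summit of the other library lay 148.5 kb from the first of these, 80.6 kb from the second and 65.5 kb from the third. Their −log10 p was 145, 46.7 and 68.5. Of 5 short motifs sought on both strands, CATTCC, the core of TEAD sites, occurred in overlapping copies in the Pdgfd window, and none of the 5 occurred in the other windows.

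Of the 53873 WT summits, 34433 (63.9%, interval 63.5% to 64.3%) had an SG summit within 500 bp, and 19440 did not. Of the 61603 SG summits, 26868 (43.6%, interval 43.2% to 44.0%) had no WT summit within 500 bp. In bulk cultures, fewer cells that carry a mark and less of the mark in each cell cannot be told apart. Unshared summits were weaker. WT-only summits had a median −log10 p of 11.5 against 22.1 for shared WT summits, and SG-only summits 12.6 against 26.9. The WT-only share fell from 63.6% in the lowest decile of −log10 p to 9.54% in the highest, and the SG-only share from 69.4% to 10.7%. At promoters, defined as within 1 kb of the start site (TSS) of a protein-coding gene, 14.6% of WT summits and 21.0% of SG summits were unshared. In introns these shares were 45.4% and 50.4%, and in intergenic DNA 41.3% and 51.5%. Promoter summits were also the stronger ones, with a median −log10 p of 42.9 in WT and 46.3 in SG.

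**Figure D1:**
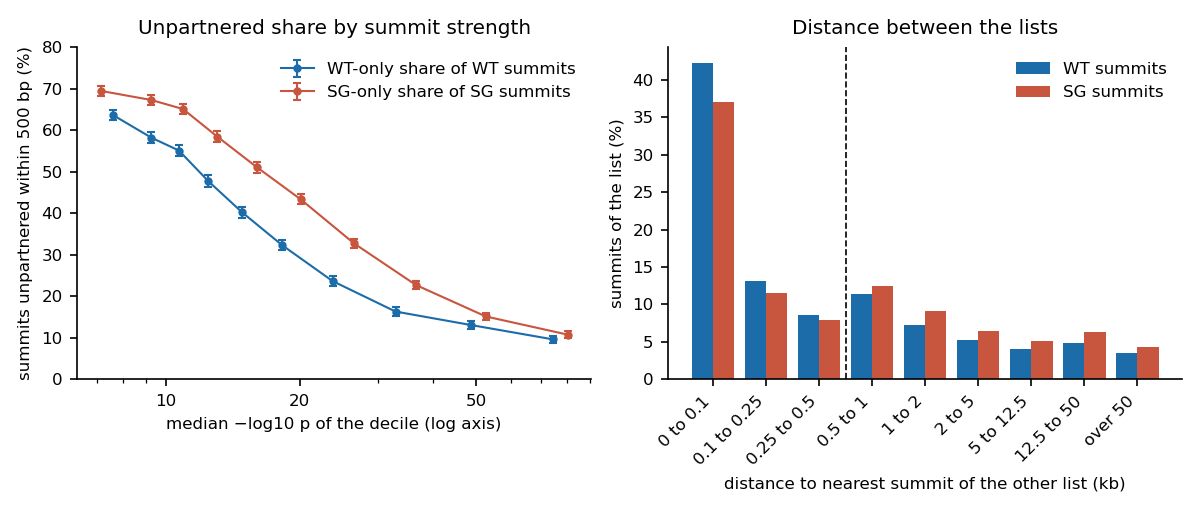
Left, share of WT (blue) and SG (red) summits without a partner within 500 bp, by decile of −log10 p, against the median of the decile on a log axis, with 95% Wilson intervals. Right, share of each list by distance to the nearest summit of the other list in kb, with the dashed line at 500 bp. The share falls from 63.6% to 9.54% in WT and from 69.4% to 10.7% in SG as summits grow stronger.

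Many unshared summits lay close to a summit of the other library. Of the WT-only summits, 9983 (51.4%) had an SG summit between 0.5 and 2 kb away and are called shifted here, 4991 (25.7%) had one between 2 kb and 12500 bp away and are called near, and 4466 (23.0%) had none within 12500 bp and are called isolated. Of the SG-only summits, 13282 (49.4%) were shifted, 7072 (26.3%) near and 6514 (24.2%) isolated. Among the 514 WT-only summits of the top decile, 91.2% were shifted, and among the 659 SG-only summits of the top decile, 88.3%. These distance classes were chosen after the lists had been compared.

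The strongest unshared summits were mostly of the shifted kind. The highest WT-only value, a −log10 p of 274, lay 278 bp from the TSS of Yap1, the coactivator of the Hippo pathway, with an SG summit 707 bp away. The second, 169, lay in intergenic DNA 188 kb from Ddi1 with an SG summit at 597 bp, and the fourth, 143, lay 76.7 kb from Cebpb with one at 643 bp. Near Tnrc18 the WT list had a summit of 142 and the SG list one of 162, 734 bp apart, and each counted as unshared. The next strongest SG-only summits lay near Cdk6 (156, a WT summit at 1048 bp), Ptbp1 (152, 879 bp), Slc4a2 (149.5, 805 bp) and 1700001O22Rik (138, 1048 bp). By contrast, the third strongest WT-only summit, in the Pdgfd intron shown above, had no SG summit within 148.5 kb.

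The classes differed in measures that had not been used to make them. Isolated WT-only summits lay within 1 kb of a TSS in 3.29% of cases (interval 2.81% to 3.86%) and isolated SG-only summits in 9.41% (8.73% to 10.1%), against 34.4% of shared summits of either list. Their median distance to a TSS was 42.3 kb in WT and 33.9 kb in SG, against 6.80 kb for shared WT summits. H3K4me3 moved the same way as acetylation. Of the isolated WT-only summits 17.8% lay in an H3K4me3 region of WT and 5.89% in one of SG, and of the isolated SG-only summits 13.9% lay in one of WT and 35.8% in one of SG. Shared WT summits lay in an H3K4me3 region in 65.4% (WT) and 64.9% (SG).

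Presence in other fibroblasts also differed between the classes. WT-only summits were found within 500 bp in the WT list of mouse embryonic fibroblasts (MEF) in 29.9% of cases and in the WT list of skin wound-healing fibroblasts in 19.2%, against 64.6% and 53.8% of shared WT summits. SG-only summits were found there in 19.4% and 13.9%. Among isolated summits, 33.5% of WT-only and 13.4% of SG-only summits were in WT MEF, and 26.9% and 14.2% were in SG MEF. Of the MEF WT summits that matched an isolated WT-only summit of MMTV-CAFs, 57.3% were kept in SG MEF (interval 54.8% to 59.8%, n = 1500), against 84.5% of those that matched a shared one (84.0% to 84.9%, n = 22652). Matches of shifted and near summits were kept in 64.0% and 59.8%, and MEF summits with no match in MMTV-CAFs in 48.3%. By quartile of MEF −log10 p, the share kept was 37.9% for matches of isolated and 59.9% for matches of shared summits in the lowest, 54.2% and 75.8% in the next and 77.0% and 88.9% in the third, with intervals that did not overlap. In the strongest quartile it was 93.5% (87.1% to 96.8%, n = 107) and 94.5% (n = 8530). In wound-healing fibroblasts 68.7% of isolated matches (64.5% to 72.6%, n = 498) and 82.4% of shared ones (81.9% to 82.95%, n = 18907) were kept in all. Within quartiles the intervals overlapped, with 60% and 66.1% kept in the lowest, 69.8% and 76.8% in the next, 82.5% and 86.0% in the third and 88.2% and 90.7% in the highest.

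Prrx1 summits, from ChIP in the WT cells, lay within 500 bp of 5.56% of WT-only summits (interval 5.24% to 5.89%), or 1.90% with a −log10 p of at least 10 in all lists and 2.52% within 250 bp. They lay within 500 bp of 8.38% of shared WT summits (8.09% to 8.67%) and 3.14% of SG-only summits (2.94% to 3.36%). Within quartiles of −log10 p, the WT-only and shared WT shares lay side by side. They were 3.18% and 3.60% in the lowest quartile, 5.15% and 5.31% in the next, 8.31% and 8.02% in the third, and 13.4% and 12.8% in the highest, with overlapping intervals in each quartile. In SG the SG-only share lay under that of shared SG summits at like strength, at 1.75% and 5.21% in the lowest quartile, 2.58% and 6.25% in the next, 4.29% and 7.74% in the third, where the intervals did not overlap, and 9.21% (8.08% to 10.5%) and 11.0% (10.4% to 11.5%) in the highest. Isolated WT-only summits had a Prrx1 summit in 7.14% and isolated SG-only summits in 1.50%. The Prrx1 list was made in WT cells alone and holds no measurement of SG.

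**Figure D2:**
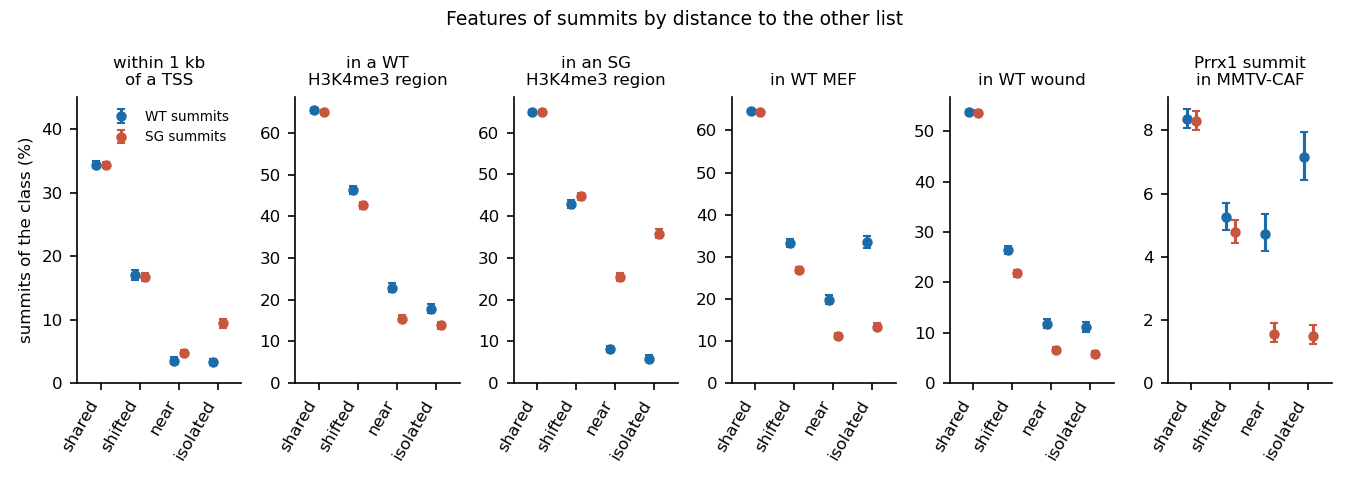
Percentage of WT (blue) and SG (red) summits in each distance class that lie within 1 kb of a TSS, in an H3K4me3 region of either MMTV-CAF library, within 500 bp of a summit of WT MEF or WT wound-healing fibroblasts, or within 500 bp of a Prrx1 summit of MMTV-CAFs, with 95% Wilson intervals and separate vertical axes starting at 0. Isolated SG-only summits were in an SG H3K4me3 region in 35.8% and isolated WT-only summits in 5.89%.

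Base composition and short motifs were counted in the classes of distal summits, those over 1 kb from a TSS. For 3 of the 5 motifs the intervals of isolated WT-only and shared WT windows did not overlap, but among summits with a −log10 p of 10 to 20 they overlapped for all 3. There TAATTA was found in 5.73% of isolated and 5.21% of shared WT windows, TGANTCA in 10.8% and 10.1%, and CATTCC in 18.6% and 16.6%. In windows of 299 bases, G and C made up 46.2% of isolated WT-only windows, 49.1% of shared WT windows and 48.6% of isolated SG-only windows. TAATTA, a homeodomain core that reads the same on both strands, was found in 6.18% of isolated WT-only windows (interval 5.50% to 6.94%), 4.76% of shared WT windows (4.49% to 5.04%), 4.76% of isolated SG-only windows (4.25% to 5.34%) and 5.11% of all distal WT windows. It was found in 8.02% of windows 2 kb downstream of the distal WT summits. TGANTCA, the AP-1 core, was found in 11.3% of isolated WT-only (10.3% to 12.2%), 9.59% of shared WT (9.22% to 9.98%) and 10.9% of isolated SG-only windows, in 9.75% of all distal WT windows and in 9.38% of those 2 kb downstream. CATTCC was found in 18.9% (17.8% to 20.1%), 16.8% (16.3% to 17.3%) and 18.5%, in 17.2% of all distal WT windows and in 15.6% of those 2 kb downstream. TGTGGTT, the RUNX core, and TTGCNNAA, the C/EBP core, were found in 6.81% and 11.5% of isolated WT-only windows against 6.71% and 11.0% of all distal WT windows. In SG, TTGCNNAA was found in 12.2% of isolated (11.3% to 13.0%) and 10.3% of shared windows (9.93% to 10.7%), and at a −log10 p of 10 to 20 in 12.2% (11.1% to 13.5%) and 10.5% (9.87% to 11.2%). The classes also differed in G and C content, and its part in these shares was not tested. The 5 words do not contain one another.

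Summits of both lists closer than 12500 bp were joined into 21007 clusters, of which 15146 held summits of both lists. Among the 9066 clusters with at least 3 summits in either list, 327 (3.61%) held at least 3 WT summits and 0 SG summits and are called lost, and 557 (6.14%) held at least 3 SG summits and 0 WT summits and are called gained. Lost clusters had up to 19 summits and gained clusters up to 23. A TSS lay in 15 of the lost clusters and in 87 of the gained ones, and their median distances to a TSS were 44.1 and 35.3 kb. A Prrx1 summit lay in 81 lost clusters (24.8%) and in 18 gained clusters (3.23%). The Prrx1 list came from WT cells alone, where gained clusters held 0 acetylation summits. An H3K4me3 region of WT overlapped 158 lost clusters and one of SG 50, while for gained clusters these numbers were 123 and 373. H3K27ac summits of WT MEF lay in 59.6% of the lost and 27.5% of the gained clusters. None of these counts and shares is given for all 9066 clusters, so no excess over clusters as a whole can be read from them.

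The lost clusters with the most summits were on chromosome 9. One of 19 WT summits ran from 6523094 to 6569597, 257 kb from Ddi1, with 4 H3K4me3 regions in WT and 0 in SG and with 8 Prrx1 summits. The next, of 17 summits, ran from 6305394 to 6355479 inside Pdgfd, a ligand of the platelet-derived growth factor receptors. The third, of 13 summits, ran from 8224411 to 8255602 over 1700128F08Rik. On chromosome 18, 11 summits from 78482172 to 78497598 lay 48.9 kb from Gm6133, and 10 from 14045210 to 14059515 lay inside Zfp521, a zinc-finger regulator of mesenchymal differentiation. At the last 2 loci the MEF lists held 7 WT and 5 SG summits, and 7 WT and 4 SG summits.

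The gained clusters with the most summits were spread over chromosomes 1, 7 and 8. One of 23 SG summits ran from 186886413 to 186913386 on chromosome 1, 63.0 kb from Mark1, which encodes a microtubule-affinity kinase. One of 18 summits ran from 92290919 to 92339755 on chromosome 1, 160 kb from Cops8. On chromosome 7, 16 summits from 78523942 to 78556382 lay 27.6 kb from Gm10295. On chromosome 1, 14 summits from 148338525 to 148377799 covered the TSS of Fam5c, with 2 H3K4me3 regions in WT and 8 in SG. On chromosome 8, 14 summits from 90012753 to 90038390 lay 16.2 kb from Cbln1. None of these 5 held a Prrx1 summit, and their summits in the MEF and wound-healing lists numbered 0 to 3 a list.

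Clusters with summits of both lists changed in number too. The largest falls were over Yap1 (7926052 to 8028495 on chromosome 9, 45 WT and 6 SG summits) and Creb3l2 (37321189 to 37444826 on chromosome 6, 44 and 15). The largest rises were around Cebpb, a C/EBP transcription factor (167505461 to 167662963 on chromosome 2, 32 and 66), Rbpj, the DNA-binding partner of Notch (53736689 to 53961156 on chromosome 5, 54 and 82), and 77.8 kb from Acsl4 (138902836 to 138974341 on chromosome X, 3 and 29).

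Losses were densest in 1 stretch of chromosome 9. Between 6 and 9 Mb the WT list held 211 H3K27ac summits and the SG list 25. The 3 bins of 1 Mb held 75, 92 and 44 in WT and 2, 20 and 3 in SG. The median of the other 2105 1-Mb bins with a summit was 19 in WT and 22 in SG, and the highest 158 and 214. The H3K4me3 and Prrx1 lists of WT MMTV-CAFs were dense there too. The stretch held 73 H3K4me3 regions in WT and 14 in SG. By bin the WT regions numbered 21, 38 and 14, and the median of the other bins was 10. It held 187 Prrx1 summits, 2.34% of the whole Prrx1 list. By bin these numbered 48, 98 and 41, and the other bins had a median of 2 and a highest of 55. Over the 3 Mb WT MEF held 40 H3K27ac summits and SG MEF 20, and the medians of the other bins were 17 and 15 a Mb. The WT and SG wound-healing lists held 27 and 64, with medians of 10 and 16 a Mb. In WT MMTV-CAFs the 100-kb steps between 1.7 and 1.3 Mb to the left of the Yap1 TSS, at lower coordinates, held 10 to 22 H3K27ac summits each, the step to the left of them held 0, and the 100 kb up to the TSS held 40. Of the promoters of genes in or across the stretch, 10 with an H3K4me3 region in both libraries had a lower fold over input in WT than in SG, while 4, among them Pdgfd (3.81-fold) and Mmp13 (1.56-fold), had a region in WT only. The fold was 7.38-fold in WT and 14.5-fold in SG at Yap1, 6.23 and 14.03 at Dync2h1, 5.57 and 12.7 at Tmem123, 4.31 and 6.99 at Birc2 and 3.12 and 8.26 at Birc3, an inhibitor of apoptosis. The number of DNA copies of this stretch in the 2 cultures was not measured here, and its part in these differences was not tested.

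The bins of 1 Mb were chosen after the lists had been compared. This stretch held 130 of the 4466 isolated WT-only summits. Of the 26 isolated WT-only summits with a −log10 p of at least 50, 14 lay there, and of the 327 lost clusters, 10 did. Without it, 317 lost clusters remained, WT-only summits had a Prrx1 summit in 5.36%, and 535 genes were lower in SG instead of 547. A second bin, 37 to 38 Mb on chromosome 6 around Creb3l2, held 88 WT and 33 SG H3K27ac summits, 33 and 11 H3K4me3 regions and 55 Prrx1 summits. H3K4me3 at the Creb3l2 promoter was again lower in WT, 8.36-fold against 12.2-fold in SG, and DNA copies were not measured there either. The next largest fall, at 78 to 79 Mb on chromosome 17, went from 68 to 33 summits with 6 Prrx1 summits. The largest rises were at 92 to 93 Mb on chromosome 1 (58 WT and 129 SG summits, 4 Prrx1 summits), 25 to 26 Mb on chromosome 16 (44 and 110) and 105 to 106 Mb on chromosome 4 (31 and 92). Over whole chromosomes, SG summits per WT summit ranged from 0.935 on chromosome 18 to 1.27 on chromosome 13.

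**Figure D3:**
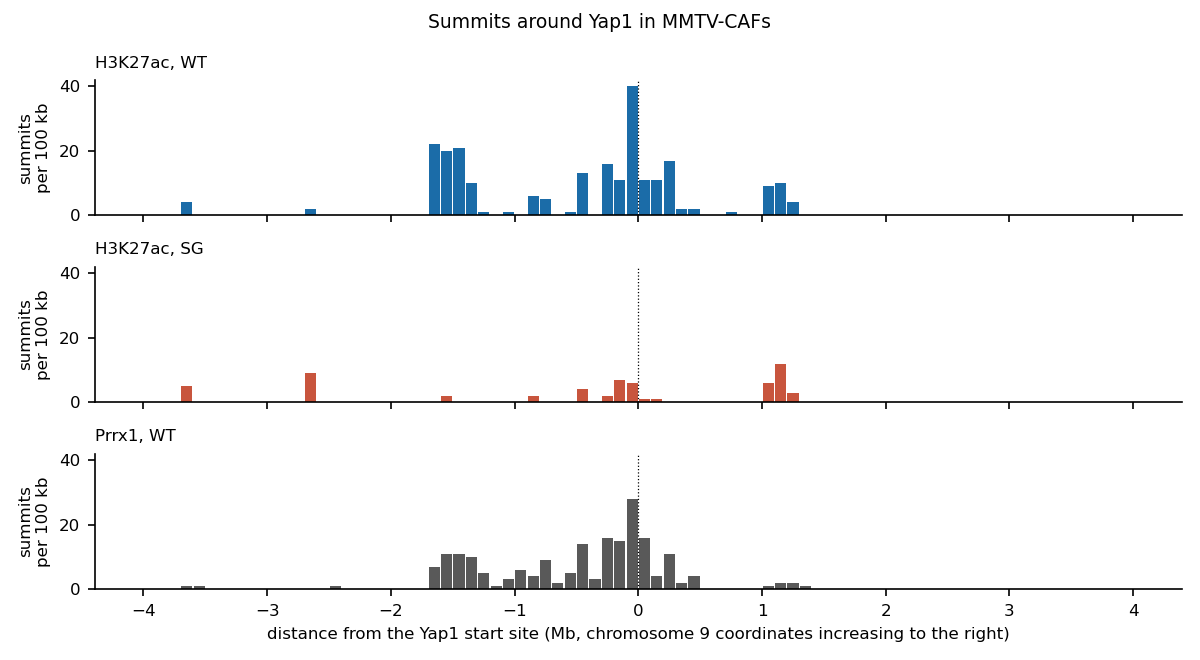
Number of summits per 100 kb within 4 Mb of the Yap1 TSS (dotted line), by distance in Mb, for H3K27ac in WT, H3K27ac in SG and Prrx1 in WT, on 1 vertical scale. The WT and Prrx1 lists are dense from about 1.7 Mb to the left of the TSS, and the 100 kb up to it held 40 WT and 6 SG H3K27ac summits.

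By gene, summits were counted in the body and 10 kb on each side. A gene was called lower where (SG + 1)/(WT + 1) was 0.5 or less with at least 3 WT summits, and higher where it was 2 or more with at least 3 SG summits. Of 9428 protein-coding genes with at least 3 summits in either list, 547 (5.8%) were lower in SG and 1212 (12.9%) were higher, and the median log2 ratio was 0.17. With both lists cut to the same number of summits by −log10 p, 764 were lower and 838 higher, so lower calls made up 31.1% of the calls in the full lists and 47.7% in the cut ones, and the median became 0.00. When −log10 p was summed in place of counting summits, 317 were lower and 1208 higher.

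Among the 10 genes with the largest fall in summit number, 6 were called lower. Yap1 went from 40 WT to 6 SG summits, Zfp521 from 22 to 0 and Pdgfd from 20 to 0. Creb3l2, a membrane-anchored transcription factor of the secretory pathway in the dense bin of chromosome 6, went from 37 to 13, the pyrophosphate transporter gene Ank from 36 to 14, and Crim1, which encodes a membrane protein that binds bone morphogenetic proteins, from 37 to 17. Ank and Crim1 lost the call when −log10 p was summed in place of counting summits, and Crim1 also with a −log10 p of at least 10. Of the other 4, which had no call, Met, the receptor of hepatocyte growth factor, held 45 and 24, D18Ertd653e 41 and 21 and the cAMP phosphodiesterase gene Pde4d 59 and 40. Met was called lower with lists of equal size, with a −log10 p of at least 10 and with summed −log10 p. D18Ertd653e was called lower with summed −log10 p.

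Among the 10 genes with the largest rise, 8 were called higher. Sox5, an SRY-box transcription factor of cartilage and neural lineages, went from 6 WT to 49 SG summits, the class III myosin gene Myo3b from 0 to 32, Auh, a mitochondrial hydratase gene, from 2 to 34, and the cell adhesion gene Sdk1 from 0 to 30. These held 0 to 1 Prrx1 summits each. H3K4me3 regions in the same windows rose from 2 to 8 at Sox5, 0 to 7 at Myo3b, 2 to 6 at Auh and 0 to 11 at Sdk1. Cacna1c, a calcium channel gene, went from 20 to 46, the chondroitin sulfate enzyme gene Csgalnact1 from 14 to 38 and Cdk14 from 22 to 46. Cacna1c and Cdk14 lost the call with lists of equal size, and Cdk14 also with flanks of 50 kb. Gm20388 (326 and 391) and Fgfr2 (106 and 135) rose in number without a call, and the window of Gm20388 spans several genes. That of Fgfr2 is wide as well, as its annotation runs from 137305965 to 140315033 on chromosome 7. The Fgfr2 window held 34 WT-only and 62 SG-only summits, while only 3 and 8 had Fgfr2 as their nearest TSS.

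By nearest TSS, which also takes in intergenic summits, the largest excess of WT-only over SG-only summits was at Ddi1 (73 and 2), in the dense stretch of chromosome 9, followed by Asap1 (43 and 8). The largest excess of SG-only summits was at Cops8 (0 and 44), Acsl4 (0 and 40) and Auh (2 and 40), with Trp63, a p53 family gene of stratified epithelium (4 and 42), and Usp24 (5 and 42) next. These genes were chosen after their values had been seen.

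**Figure D4:**
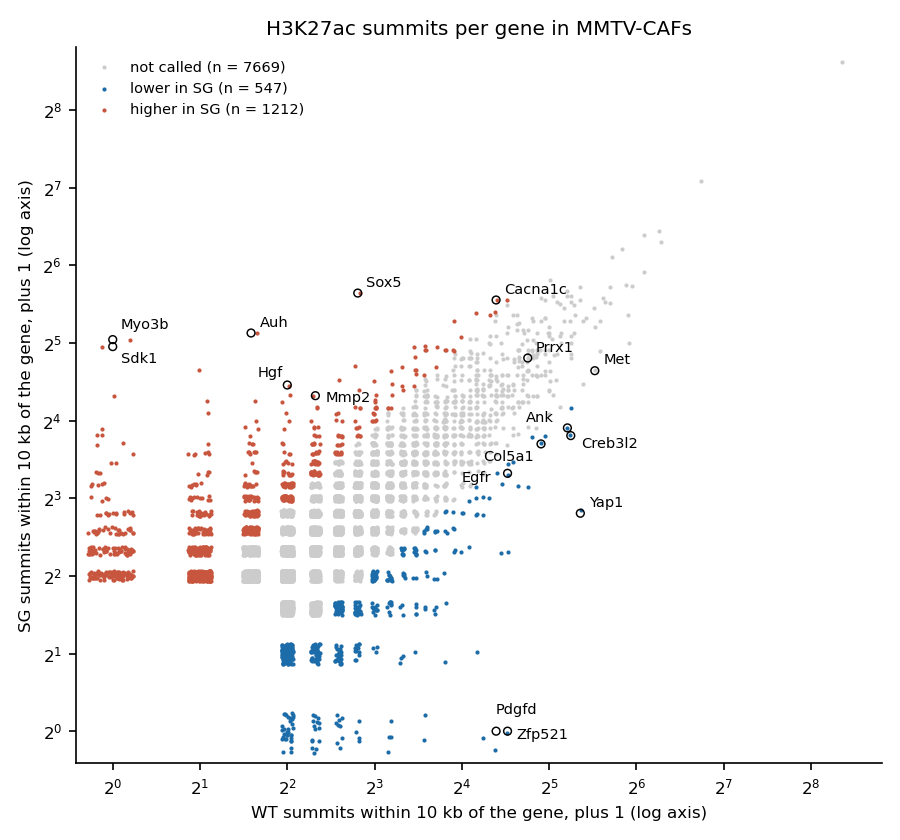
H3K27ac summits in each protein-coding gene and 10 kb on each side in WT (horizontal) and SG (vertical), plus 1, on log axes with a small random offset so that equal counts can be seen. Blue genes are lower in SG (547), red ones higher (1212) and grey ones not called (7669), and named genes are circled at their exact values.

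Other marks at the called genes were read separately. H3K4me3 regions in the windows of the 547 lower genes fell from 1215 to 801 in total and were fewer in SG in 48.6% of them and more in 8.78%. At the 1212 higher genes they rose from 2057 to 2887 and were fewer in 12.2% and more in 46.9%. At genes with no call, 31.6% had fewer and 19.99% more. The H3K4me3 fold at the promoters themselves hardly differed, with a median log2 ratio of SG to WT of 0.11 at lower, 0.17 at higher and 0.15 at other genes. A Prrx1 summit lay in the window of 43.5% of lower, 24.8% of higher and 43.4% of other genes.

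The same deletion in MEF and wound-healing fibroblasts, which share no library with this comparison, gave calls by the same rule. In MEF 7.09% of tested genes were lower and 6.52% higher. Of the 319 lower genes of MMTV-CAFs that were tested in MEF, 61 (19.1%) were lower there and 25 (7.84%) higher. Those 61 are 11.1% of all genes lower in MEF, and 2 of them, Yap1 and Pdgfd, lie in the dense stretch of chromosome 9. Of the 566 higher genes tested in MEF, 59 (10.4%) were lower there and 61 (10.8%) higher, and these 61 are 12.1% of those higher in MEF. In wound-healing fibroblasts 4.29% of tested genes were lower and 17.3% higher. There, 20 of 303 lower genes (6.60%) were lower and 84 (27.7%) higher, and of 544 higher genes 25 (4.60%) were lower and 181 (33.3%) higher.

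At promoters, 10522 genes had a summit within 1 kb of a TSS in both lists, 293 in WT only and 776 in SG only. The strongest of the WT-only promoters were those of Lgals1, Pdgfrb, Fosl2, Trim8 and Slc38a2, with a −log10 p of 108 to 137, and the nearest SG summit lay 1062 to 2184 bp from each TSS. Among the strongest SG-only promoters were those of Dusp4, Tnfrsf12a and Zfp36, with 112 to 134, and the nearest WT summit lay 1111 to 2691 bp from each TSS. H3K4me3 covered these promoters in both libraries. It was 11.0-fold in WT and 11.2-fold in SG at Lgals1 and 10.5-fold and 15.8-fold at Dusp4.

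Promoters with no summit of the other library within 12500 bp of a TSS, a limit set after seeing these distances, numbered 96 in WT and 445 in SG. The strongest in WT belonged to Zfp521 (−log10 p 57.5), Wnt5a, a non-canonical Wnt ligand (45.3), and Tagln, the smooth muscle actin-binding protein transgelin (38.3). H3K4me3 there was 10.9-fold in WT and 6.86-fold in SG at Zfp521, 9.70 and 4.33 at Wnt5a, and 6.21 and 2.67 at Tagln. The strongest in SG belonged to the neighbours Tmem176a and Tmem176b (108), to Foxf1a, a forkhead factor of mesoderm (92.5), and to Sod3, the extracellular superoxide dismutase (85.7). H3K4me3 was absent in WT and 8.78-fold in SG at Tmem176a, 6.10-fold and 15.2-fold at Foxf1a, and 3.72-fold and 7.94-fold at Sod3. Of the 96, 56 had an H3K4me3 region in both libraries, with a lower fold in SG at 47 and a higher one at 9, and 23 had one in WT only and 1 in SG only. Of the 445, 314 had one in both, with a higher fold in SG at 268 and a lower one at 46, and 98 had one in SG only and 2 in WT only. Median log2 ratios were taken over promoters with an H3K4me3 region in both libraries. The median was 0.14 for promoters acetylated in both lists. It was 0.05 for 197 of the 293 WT-only promoters (interval -0.02 to 0.12) and 0.43 for 556 of the 776 SG-only promoters (0.36 to 0.49). By region width in place of fold these were -0.11 (-0.19 to -0.05) and 0.36 (0.30 to 0.44).

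**Figure D5:**
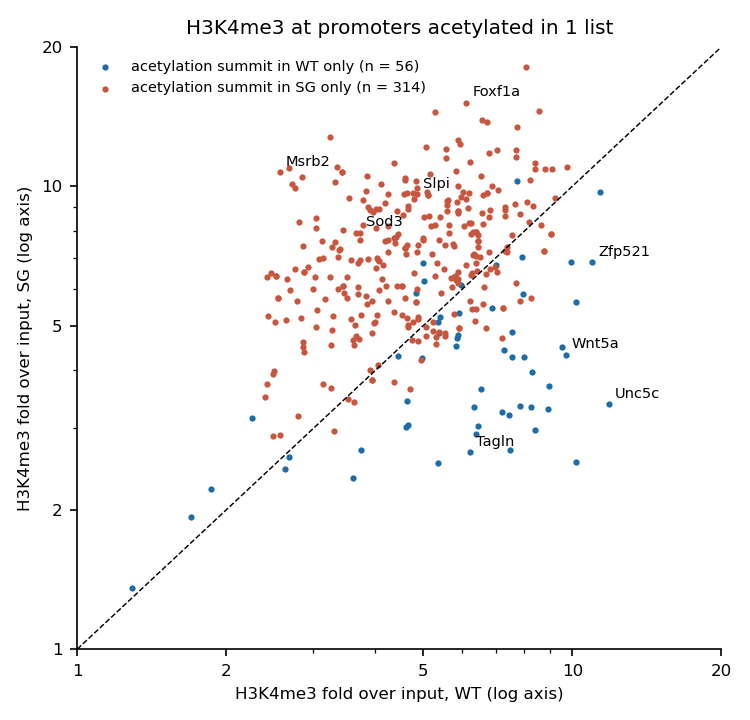
H3K4me3 fold over input in WT and SG on log axes at promoters whose H3K27ac summit was in 1 list, with none of the other list within 12500 bp, for genes with an H3K4me3 region in both. Of 56 promoters acetylated in WT only (blue), 47 lie under the dashed line of equality, and of 314 acetylated in SG only (red), 268 lie above it.

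Gene groups of stromal biology were then read one by one against the 5.8% lower and 12.9% higher and the median log2 ratio of 0.17 of all tested genes. Each median below is over the tested members of the group. Of 22 myofibroblast contractile genes, all tested, 1 was lower and 1 higher, with a median log2 ratio of 0.00. Tagln went from 4 WT to 0 SG summits, and the tropomyosin gene Tpm2 from 2 to 5. The members with the most summits were Cald1 (48 and 47), Actn4 (27 and 27), Myh9 (32 and 19) and Palld (16 and 29), none called, and Acta2, smooth muscle actin, held 4 and 2. Tagln lost its call with flanks of 50 kb or a −log10 p of at least 10, and Tpm2 with flanks of 50 kb or summed −log10 p.

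Of 8 tested fibrillar collagen genes, 1 was lower and 1 higher, with a median of 0.30. Col5a1, a minor chain that starts collagen fibrils, went from 29 to 12 summits, while its promoter summits were 110 and 128 in −log10 p, and the call was lost with flanks of 50 kb and with summed −log10 p. Col27a1 went from 1 to 5. The major chains were not called, at 8 and 14 for Col1a1, 24 and 17 for Col1a2 and 19 and 13 for Col3a1. Of 24 tested genes of other matrix and matricellular proteins, 4 were lower and 0 higher, with a median of -0.10. Postn, which encodes periostin, went from 3 to 1, Fbln5, an elastic fibre gene, from 4 to 1, Col8a1 from 23 to 10 and Col12a1 from 5 to 1. At the Postn promoter the WT summit of 37.6 had no SG summit within 1 kb, and H3K4me3 was 4.90-fold in WT and absent in SG. Of these 4, only Postn kept its call under every alternative. Fbn1, the fibrillin gene, held the most, 61 and 52.

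Of 22 tested TGF-beta pathway genes, 0 were lower and 1 was higher, Bmp4, from 0 to 3 summits, with a median of 0.17. Within their windows both receptors were near level, with 2 and 3 summits at Tgfbr1 and 3 and 3 at Tgfbr2. A lost cluster of 8 WT summits, 116276265 to 116293757 on chromosome 9, had Tgfbr2 as its nearest TSS, 192 kb away. The coreceptor gene Tgfbr3 held 76 and 86, the signal mediator gene Smad3 36 and 48, and the inhibitory Smad6 15 and 27, none called. Of 12 tested cytokine and secreted signal genes, 0 were lower and 2 higher, and 11 held more summits in SG than in WT, as did 4881 of all 9428 tested genes, with a median of 0.72. The alarmin gene Il33 went from 1 to 9 summits, and Il6 from 3 to 7. At the Il33 promoter the SG summit was 21.4 in −log10 p with none in WT within 5 kb, and H3K4me3 was absent in WT and 3.11-fold in SG. The Il6 promoter summit was 44.4 in WT and 84.1 in SG. With lists of equal size, 9 of the 12 held more in SG, as did 3690 of all 9047 tested genes, and Il6 was not called.

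Of 14 tested proteases and inhibitors, 1 was lower and 2 were higher, with a median of 0.10. The gelatinase gene Mmp2 went from 4 to 19 summits and Mmp9, the other gelatinase, from 1 to 4, and the collagenase gene Mmp13, in the dense stretch of chromosome 9, from 3 to 0. Mmp13 lost its call with a −log10 p of at least 10. At the Mmp2 promoter H3K4me3 was 2.55-fold in WT and 11.5-fold in SG. Of 18 tested growth factors and receptors, 4 were lower and 2 higher, with a median of 0.11. The lower ones were Pdgfd (20 and 0), Wnt5a (3 and 0), the lymphatic growth factor gene Vegfc (4 and 1) and Egfr, the epidermal growth factor receptor (22 and 9). The higher ones were Hgf, hepatocyte growth factor (3 and 21), and Igf1r (20 and 41). The Hgf promoter summit had a −log10 p of 26.7 in WT and 108 in SG, and that of Egfr 53.8 and 42.4. With lists of equal size 5 were lower and 1 higher, and Igf1r was not called, nor was it with a −log10 p of at least 10 or flanks of 50 kb. Egfr was not called with flanks of 50 kb, with a −log10 p of at least 10 or with summed −log10 p.

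Of 20 tested mesenchymal transcription factor genes, 1 was lower and 5 higher, with a median of 0.01. Meox2 went from 12 to 5 summits. Foxf2 went from 4 to 17, Twist1 from 2 to 6, Tbx3 from 2 to 6, Meox1 from 0 to 3 and Prrx2, the paralog of Prrx1, from 8 to 19. With lists of equal size these numbers were 3 lower and 4 higher, and Twist1 was not called, nor was it with a −log10 p of at least 10 or summed −log10 p. Meox1 was not called with flanks of 50 kb. Runx2 (51 and 52) and Zeb2 (26 and 19) held many summits with no call. Of 22 tested AP-1, TEAD, KLF, NFI and C/EBP factors and their coactivators, 1 was lower, Yap1, and 3 higher, Nfib (11 and 29), Atf3 (2 and 5) and Klf5 (2 and 5), with a median of 0.20. Atf3 lost its call with a −log10 p of at least 10 and Klf5 with flanks of 50 kb. Wwtr1, the paralog of Yap1, held 21 and 23, and the TEAD gene Tead1 27 and 19.

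Of 32 tested Hox genes, 1 was lower and 3 higher, with a median of 0.00. Hoxa6 went from 7 to 3, Hoxb9 from 3 to 7, and Hoxb13 and Hoxc12 from 0 to 3 each. The windows of neighbouring Hox genes overlap, and these 4 calls were each lost under at least 1 alternative. Of 14 tested cell cycle genes, 0 were lower and 1 higher, Ccnd2 (3 and 7), whose call was lost under 4 of the alternatives, with a median of 0.34. The brakes Cdkn2a and Cdkn1b held 9 and 10, and 8 and 13.

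With lists of equal size, where the median over all 9047 tested genes was 0.00, the group medians moved down. They were -0.45 for growth factors and receptors, -0.37 for other matrix genes, -0.19 for proteases, -0.16 for contractile genes, -0.14 for Hox genes and -0.11 for mesenchymal transcription factors. They were 0.44 for cytokines, 0.32 for cell cycle genes, 0.05 for the TGF-beta pathway, 0.03 for fibrillar collagens and 0.00 for the AP-1 and related factors.

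Marker groups differed in how they moved. The fibroblast group held 102 WT and 100 SG summits over its 11 genes with 0 calls among 8 tested, or 1 lower with lists of equal size. The epithelial group held 15 and 22 over 14 genes, with Krt19 lower (3 and 1) and Grhl2 higher (0 and 3) among 4 tested and a median of 0.50. The immune group held 19 and 18, the pericyte group 14 and 11, and the adipocyte and muscle group 10 and 11, with 0 calls each. The endothelial group held 11 and 17 over 7 genes, with Erg (0 and 7) and Cdh5 (0 and 3) higher among 3 tested, a median of 2, and Pecam1 level (7 and 7). Neither Erg nor Cdh5 had an acetylation summit at its promoter in either list, although H3K4me3 at the Erg promoter was absent in WT and 3.26-fold in SG. Cdh5 and Grhl2 lost the call with a −log10 p of at least 10. Cdh5 lost it with lists of equal size too, where 1 of 2 tested endothelial genes was higher and the median was 1.20, and the part of other cells in these values was not tested.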

How the data were processed

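ChIP-seq peak lists of MMTV-CAFs with the control guide (WT) and with Prrx1 deleted (SG) were compared, 1 library each. Per the labels and the study's methods, Trimmomatic was used by the authors on the reads, Bowtie for mapping to mm9 and Picard for duplicates. MACS2, run with the input of each culture, gave sharp peaks for H3K27ac and Prrx1 and broad regions for H3K4me3. For Prrx1 in the mouse cells the methods also name duplicates and an IgG control, and 1 Prrx1 list of MMTV-CAFs was available here. Each row of the deposited H3K27ac and Prrx1 lists is a 1-bp summit and its −log10 p-value, without fold or width. The deposited H3K4me3 lists give broad regions with a fold (ratio) over input. No read totals are part of these lists, so the depth behind each list is unknown. The cutoff of the caller decides which weak summits are listed, and 1 broad peak can be split into a different number of summits in each library.

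Positions are 1-based mm9. Genes came from GENCODE vM1 on NCBIM37, the same build, and sequences from that genome. Summits within 500 bp of each other counted as shared. Clusters joined summits within 12.5 kb. Gene windows were the gene body with 10 kb on each side, and 1 was added to each count before the ratio. For promoters the fold of the strongest H3K4me3 region within 1 kb of a TSS was used. Presence in another list was a summit within 500 bp. Shares carry Wilson 95% intervals, and medians of H3K4me3 ratios carry order-statistic 95% intervals. The functions were tested on simulated data with planted losses and gains. Replicate tests could not be made with 1 library a group.

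Named items followed a rule: Prrx1, the 5 lost and 5 gained clusters with the most summits, the 3 largest falls and 3 largest rises of shared clusters, the 5 strongest unshared summits and promoters of each list, the 10 genes with the largest fall and rise, and, in each gene group, up to 4 called members a direction and the 4 with the most summits. Other genes named, among them members given to complete a group, were chosen after their values were seen. The members and lists were chosen with earlier results of these data known. Alternatives were 250 bp and 1 kb for sharing, a −log10 p of at least 10, lists of equal size, TSS of all annotated genes, stitching at 5 kb, flanks of 50 kb, summed −log10 p with 5 added, and H3K4me3 region width. Chromosome 9 without 6 to 9 Mb and the distance classes were added after seeing the data. A few items that this rule names are not reported here. Cebpd and Spi1, in the gene groups, had no match in the annotation used. Analyses ran in Python 3.11.15 with pandas 2.3.3, numpy 2.4.6, pysam 0.24.0 for sequences, scipy 1.17.1 for intervals and matplotlib 3.10.9 for plots. Besides the compared lists, the H3K4me3 and Prrx1 lists of MMTV-CAFs were used. So were the H3K27ac lists of WT and SG MEF and wound-healing fibroblasts. The remaining H3K27ac list, also of MEF, entered the summit total of the series. Inputs, reads and the other lists of the series were not used here.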

Additional observations from a re-analysis of the deposited data

Results flagged for a closer look

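For 6 of the named genes the call in MMTV-CAFs was opposite to the call for the same deletion in another fibroblast type, with 1 library per group and no test of the difference. Yap1 had a log2 ratio of -2.55 in MMTV-CAFs (40 WT and 6 SG summits) and of 1.46 in wound-healing fibroblasts (3 and 10), while in MEF it was lower as well (-1.81, 13 and 3). It lies in the dense stretch of chromosome 9. Col8a1 had -1.13 in MMTV-CAFs (23 and 10) and 1.36 in wound-healing fibroblasts (6 and 17). Auh had 3.54 in MMTV-CAFs (2 and 34) and -1.22 in wound-healing fibroblasts (6 and 2). Acsl4 had 1.58 in MMTV-CAFs (6 and 20) and -1 in MEF (5 and 2), and was higher in wound-healing fibroblasts (1.42, 2 and 7). Trp63 had 1.52 in MMTV-CAFs (7 and 22) and -2.00 in MEF (3 and 0), and was higher in wound-healing fibroblasts (2, 3 and 15). C1qtnf7 had 4.32 in MMTV-CAFs (0 and 19) and -2.32 in MEF (4 and 0), with 0 summits in both wound-healing lists. Neither Col8a1 (14 and 10) nor Auh (3 and 3) had a call in MEF. In the type with the opposite call the counts were of 10 summits or fewer, except Col8a1 with 17 in wound-healing SG.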

How the results depend on the processing

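With 1 library per group no result had a replicate error, and leaving out a replicate could not be done. No paired analysis was possible because each group held 1 library and no result came from a test. The depth of the libraries is unknown, so a weak summit listed in 1 library only may be present but uncalled in the other. The share of WT summits kept in SG (63.9%) became 65.3% with a −log10 p of at least 10, 59.9% with lists of equal size, 55.4% with sharing within 250 bp and 75.2% within 1 kb. The share of SG summits absent from WT (43.6%) became 39.95% with equal lists, 51.5% at 250 bp and 31.1% at 1 kb. The promoter share of WT-only summits (10.4%) became 12.46% with the stronger summits, 9.89% with equal lists, 13.4% at 250 bp, 5.14% at 1 kb, 11.7% with TSS of all annotated genes and 3.29% for isolated summits, and that of SG-only summits (11.8%) became 13.6%, 13.2%, 14.03%, 7.47%, 13.4% and 9.41%. The share of WT-only summits with a Prrx1 summit (5.56%) became 1.90% with a −log10 p of at least 10, 2.52% at 250 bp and 8.75% at 1 kb. In the first of these that limit was applied to the Prrx1 list as well, and in the others the distance to a Prrx1 summit changed with the distance for sharing. The share present in WT MEF or wound-healing fibroblasts (37.6%) became 36.1%, 33.7% and 41.3%. With summed −log10 p, 317 genes were lower in place of 547, and Hoxa6 turned to 0.56. By region width the median H3K4me3 log2 ratio at WT-only promoters was -0.11 in place of 0.05. Lost clusters ranged from 232 to 409 and gained ones from 415 to 694, and over the other alternatives lower genes ranged from 434 to 764 and higher genes from 838 to 1393. Of 57 genes with a call that were checked, 30 kept it under every alternative run for them. Prrx2 was not among the 57, and 54 of them were run without 6 to 9 Mb of chromosome 9. The causes of these shifts were not tested.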
